A study of Mus musculus with 6 samples.

Results

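The 10 genes Cox10, Cox11, Cox14, Cox15, Cox17, Cox18, Cox20, Sco1, Sco2 and Surf1 encode assembly factors of cytochrome c oxidase, complex IV of the respiratory chain. They were taken by gene name from a table of 54532 genes, and all 10 were found in it. Heart RNA was sequenced from 6 mice to ask how loss of Mrps5, a protein of the mitochondrial ribosome, changes gene expression in the heart. The 3 control mice (Ctrl) carried the genotype Mrps5 fl/fl, in which loxP sites flank part of Mrps5, and the 3 cardiac knockout mice (cKO) were Mrps5 fl/fl; MCM. MCM is a transgene for the tamoxifen-inducible Cre recombinase MerCreMer under the alpha myosin heavy chain promoter, which is active in cardiomyocytes. By the labels, mice of both groups received tamoxifen at 8 weeks of age, at 45 mg/kg per day for 5 days. Hearts were taken 12 weeks after it. The authors' methods instead describe the sequenced mice as 12 weeks old, and the labels are followed here. Because Ctrl mice lacked the transgene, the deletion and the transgene under tamoxifen cannot be told apart.

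Cytochrome c oxidase passes electrons from cytochrome c to oxygen and is built around core subunits that mitochondrial DNA encodes (COX1, COX2 and COX3). COX1 has to receive haem A and a copper ion, COX2 receives a copper pair, and nuclear-encoded subunits are then added around the core. Assembly factors synthesise haem A, carry copper, and hold or insert the core subunits, but are absent from the finished enzyme. In patients, defects of SURF1, SCO2, COX10 or COX15 cause complex IV deficiency, and the heart is among the organs affected.

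Expression was given as FPKM, the fragments per kilobase of gene length scaled to a library size. These sizes were 0.913 to 0.98 times the total of reads in genes in Ctrl hearts and 1.06 times in cKO hearts. Compared with values per read in genes, this scaling lowers cKO relative to Ctrl. FPKM is a value per length, which allows levels to be compared between genes whose exons are their own. For Sco2, Cox17 and Cox20 it does not, and for Cox11 only in part, as described with their exons. Changes were tested with limma on log2(FPKM + 1) over the 12944 genes whose mean reached 0.5 FPKM. Fold changes are differences of cKO minus Ctrl on that scale, which understates changes of low genes, and p-values were adjusted (Benjamini-Hochberg) over all genes tested, with a threshold of 0.05. Of all genes tested, 4315 (33.3%) passed, 2110 of them (16.3%) higher in cKO and 2205 (17.0%) lower. Hearts of one group all lay above those of the other in 6632 genes (51.2%), and the exact permutation test of 3 hearts against 3 gives such a gene its smallest p, 0.1.

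The deleted gene followed the labels. Mrps5 gave 5.199, 6.45 and 6.33 FPKM in the control hearts against 1.12, 1.23 and 1.31 in the knockouts, whose mean was 20.4% of that of the controls, and the fold change of -1.65 (log2, SE 0.0944) had a limma adjusted p of 0.000202. Between 15989322 and 24875499 reads per heart lay in genes. The cKO heart numbered 2 had no reads of Y-linked marker genes and Xist at 10.7 FPKM, in contrast to the other 5 hearts, the pattern of a female heart. The labels do not give sex, and the study states that its mice were male, so this library goes against the stated sex. Without it, Cox11 passed the threshold (log2 fold change 0.36, adjusted p = 0.0205) and no other assembly factor of the 10 did. Whole tissue was sequenced, in which fewer cells of a type and less RNA per cell cannot be told apart. Of 10 cardiomyocyte markers 5 fell and none rose, with sums of 15615 to 19773 FPKM in Ctrl and 9574 to 16693 FPKM in cKO. Of 5 endothelial markers 4 fell, with sums of 100.2 to 121 FPKM against 67.4 to 78.1 FPKM, and no such marker was at 0. Of 6 fibroblast markers 2 rose and 1 fell (sums of 145 to 168 against 132 to 143 FPKM), of 4 tested leukocyte markers 1 fell (88.4 to 121 against 79.2 to 109.6 FPKM) and of 3 tested smooth muscle markers 1 rose (16.1 to 29.4 against 28.4 to 54.3 FPKM). None of 4 atrial and 4 red cell markers passed, with atrial sums between 25.2 and 992 FPKM over all hearts. Of the skeletal muscle markers only Acta1 was tested, and it rose, while Myh1 was listed at 0. The part of these shifts in the results below was not tested.

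**Figure D1:**
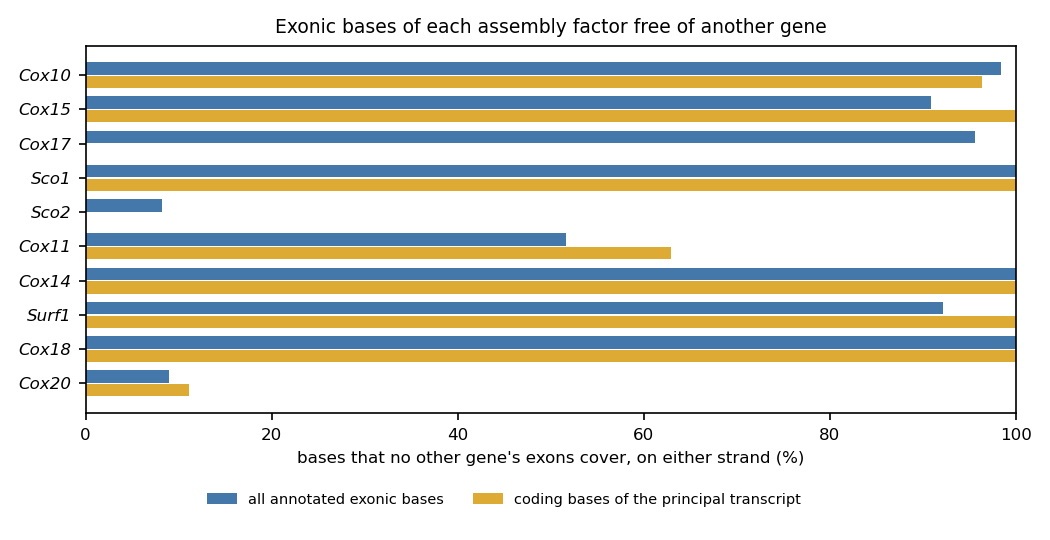
For each assembly factor, the bars give the percentage of bases, on the horizontal axis, that no exon of another annotated gene covers on either strand, for all exonic bases (blue) and for the coding bases of the principal transcript (yellow). Sco2 and Cox17 have 0% of coding bases to themselves and Cox20 has 11.1%, while Sco1, Cox14 and Cox18 have 100%.

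How far each gene can be read from short fragments differed widely among the 10, since several share exons with other genes. In the GENCODE M21 annotation (GRCm38), Sco1, Cox14 and Cox18 shared no exonic base with another gene, and Cox10, Cox15 and Surf1 kept 98.4%, 90.9% and 92.2% of their exonic bases to themselves. Cox11 kept 51.7%, Cox20 8.95% and Sco2 8.22%. For Cox17 the figure was 95.5% of a length of 5773 bases, which is the whole gene span, but its principal transcript has 444 bases and none of its 189 coding bases was unshared. Of 274 protein-coding genes with under 10% unshared exonic bases, 218 (79.6%) were listed at 0 in every heart, compared with 4217 of 15386 (27.4%) where no exonic base was shared. How reads in shared exons were assigned, and whether read strand was used, is not given in the sources used here. Without strand, reads of a gene and of a partner on the opposite strand cannot be told apart.

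What the promoters have in common was looked at in RefSeq windows of 250 bases before to 50 after each start (GRCm38.p6), which matched 8 of the 10 genes (not Cox17 and Cox18). The ETS core CCGGAAG, searched on both strands, was found in 6 of these 8 windows, and in 8.86% of all 32851 promoters. That background covers promoters of any base composition. G and C made up 54.3% to 70.7% of the 8 windows, and no background of like composition was drawn. The matches are shown with 8 flanking bases on the strand of the gene because this was the feature that most of the genes shared; capitals mark the match, which reads CTTCCGG where the motif is on the opposite strand.
Cox10: gctgggagCCGGAAGtgacaaga
Cox15: cgcctgacCCGGAAGtgcttgtt
Sco1: tccttcggCTTCCGGcagaagcg
Cox14: ggtagaagCCGGAAGttcaaggc
Surf1: gccctactCTTCCGGtcacggtt
Cox20: agggcgggCTTCCGGacagcccc
The windows lie at chr11:64079485-64079507 (minus strand, Cox10), chr19:43752979-43753001 (minus, Cox15), chr11:67052617-67052639 (plus, Sco1), chr15:99725644-99725666 (plus, Cox14), chr2:26916514-26916536 (minus, Surf1) and chr1:178319042-178319064 (plus, Cox20). Counted from the start, with the first transcribed base as 1, the match covered -27 to -21 in Cox10, 8 to 14 in Cox15, -45 to -39 in Sco1, 35 to 41 in Cox14, 3 to 9 in Surf1 and -103 to -97 in Cox20. The Sco2 and Cox11 windows held no match. The YY1 motif AAGATGGCG (1.4% of all promoters) was found in Cox10, beginning at base 22. Neither the NRF1 motif GCGCANGCG (6.25% of all promoters) nor the CHOP-ATF composite element TGATGNAA (3.97%) was found in any of the 8, on either strand. A match of letters is a description of the sequence and not evidence of binding.

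**Figure D2:**
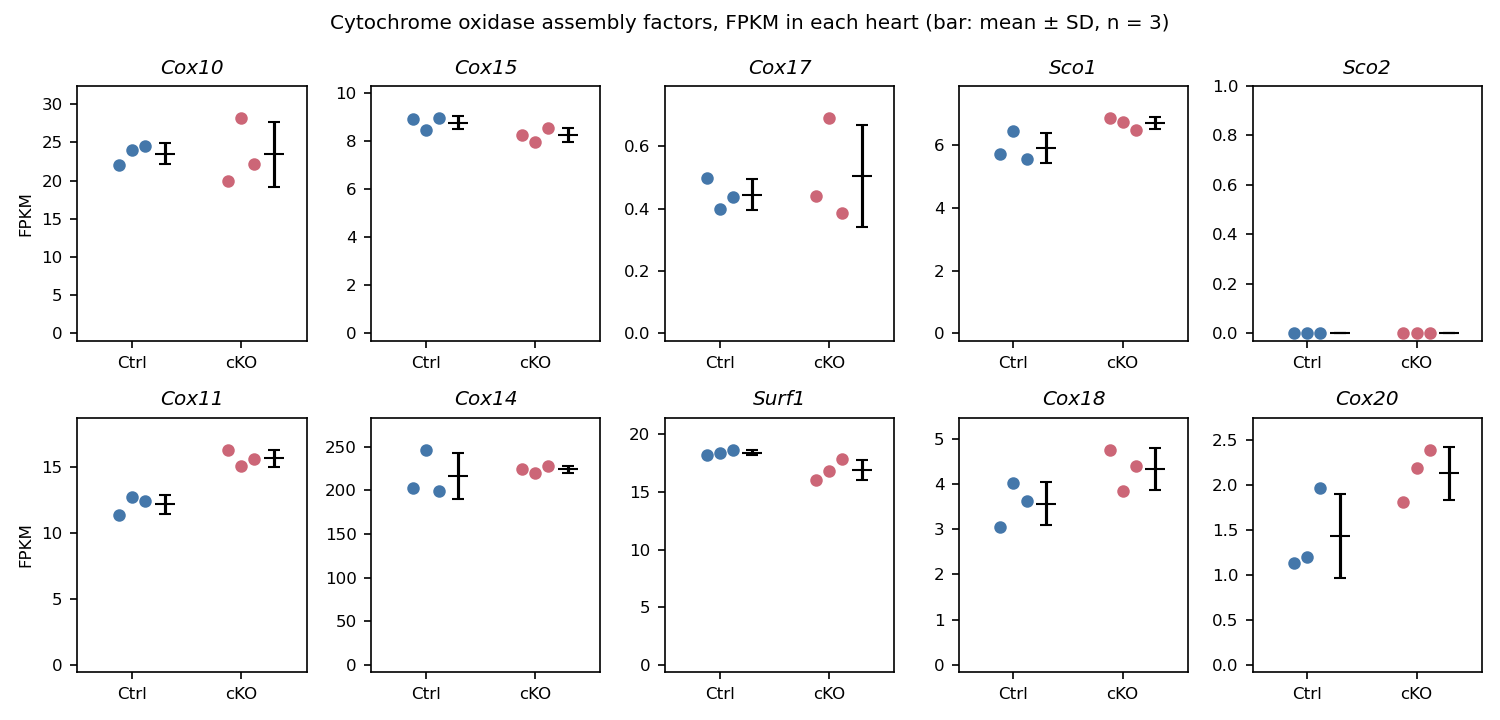
Each panel shows FPKM (vertical axis, starting at 0) of 1 assembly factor in the 3 Ctrl hearts (blue) and 3 cKO hearts (red), with mean ± SD as bars. The cKO hearts lay above the Ctrl hearts in Cox11 (15.0 to 16.3 against 11.3 to 12.7 FPKM) and Sco1, and below them in Surf1, while Sco2 was listed at 0 throughout.

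Levels of the 10 genes spanned a wide range in the heart. Among the 7 genes with over 50% unshared coding bases, the order in Ctrl from high to low was Cox14, Cox10, Surf1, Cox11, Cox15, Sco1 and Cox18, and the ranges of neighbours did not overlap. The order of the means in cKO was the same, with an overlap only between Surf1 (16.1 to 17.8 FPKM) and Cox11 (15.0 to 16.3 FPKM). Both orders hold for the deposited values only. With 51.7% of its exonic bases unshared, the place of Cox11 depends on how reads in shared exons were assigned. Lengths were unions of exons, such as 3925 bases for Sco1 and 2710 for Cox18, whose principal transcripts have 2186 and 1307 bases. An order per transcript length was not computed and could differ. Cox20, Cox17 and Sco2 have lower values in the table, but they were not ranked, since their coding bases are mostly or wholly shared with other genes. Cox14 accounted for 72.4% to 76.6% of the summed FPKM of the 10 genes in each heart.

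After deletion of Mrps5, 1 of the 8 assembly factors that could be tested passed the threshold, against 33.3% of all genes. This was Cox11, which rose, and none fell, against 16.3% higher and 17.0% lower over all genes. Fold changes were positive for 5 and negative for 3 genes, between -0.12 and 0.37 with a median of 0.11, where the median over all genes was -0.02. The median size of the change was 0.138 (log2) in the 8 genes and 0.223 in all genes, with median SEs of 0.0877 and 0.1. In 3 of the 8 (Sco1, Cox11 and Surf1) the groups did not overlap, compared with 51.2% of all genes. These signs and separations hold for the deposited library sizes, and totals of reads in genes were not tried as sizes. Cox17 lay under the filter on low values and Sco2 was listed at 0, so neither was tested.

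Haem A is made from haem in 2 steps. COX10, haem O synthase, attaches a farnesyl group. Cox10 (chr11:63962627-64079468, minus strand, 7 exons) measured 22.0, 24.0 and 24.6 FPKM in the controls against 19.98, 28.1 and 22.2 in the knockouts. The cKO hearts lay on both sides of the controls, and the means were 23.5 ± 1.34 and 23.4 ± 4.23 FPKM (SD, n = 3). The log2 fold change was -0.02 (SE 0.128, adjusted p = 0.923) with a 95% interval of -0.32 to 0.28, or 0.80-fold to 1.22-fold. COX15, haem A synthase, oxidises haem O to haem A. Cox15 (chr19:43733254-43753000, minus strand, 9 exons) measured 8.90, 8.43 and 8.93 FPKM in the controls against 8.26, 7.97 and 8.54 in the knockouts. The groups overlapped (8.76 ± 0.280 and 8.25 ± 0.289 FPKM), with a log2 fold change of -0.08 (SE 0.0666, interval -0.23 to 0.08, adjusted p = 0.415). Neither haem A enzyme passed the threshold.

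Copper reaches the enzyme by way of COX17, a small soluble carrier that hands it to SCO1 and SCO2 for COX2 and to COX11 for COX1. Of these 4 genes Cox11 rose. Cox11 (chr11:90638173-90644931, plus strand, 4 exons) measured 11.3, 12.7 and 12.4 FPKM in the controls against 16.3, 15.0 and 15.6 in the knockouts. Every cKO heart lay above every Ctrl heart, and the cKO mean was 129% of the Ctrl mean (15.6 ± 0.630 against 12.2 ± 0.736 FPKM). The log2 fold change was 0.34 (SE 0.0744, interval 0.16 to 0.51, or 1.12-fold to 1.43-fold), with a limma adjusted p of 0.0144. These values rest on 307 to 557 reads per heart. Without Ctrl replicate 1, the lowest of the hearts, the change of Cox11 was 0.29 and its adjusted p 0.0520, so the call depended on that heart. The atrial markers Myl7, Myl4 and Sln were highest in that heart (679, 107 and 204 FPKM) and next in cKO replicate 3 (495, 88.0 and 131 FPKM). The atrial marker Bmp10 was highest in cKO replicate 3 (22.7 FPKM, against 1.78 FPKM in Ctrl replicate 1). Cox11 in cKO replicate 3 lay between the other cKO hearts. Whether atrial content bears on the Cox11 values was not tested. Tom1l1, which shares 688 of the 1423 exonic bases of Cox11 on the opposite strand, measured 2.21, 2.70 and 2.70 FPKM in the controls against 2.86, 2.06 and 2.34 in the knockouts (log2 fold change -0.05, adjusted p = 0.752). Per length Tom1l1 lay below Cox11 and its groups overlapped, but it had 326 to 506 reads per heart. How reads in the shared bases were assigned is not known, and their part in the change of Cox11 was not tested.

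Because Cox11 was the member that passed the threshold, the 250 bases before its RefSeq start are shown (chr11:90637934-90638183, plus strand, GRCm38.p6). They hold 21 CpG and no match to the motifs searched.
Cox11: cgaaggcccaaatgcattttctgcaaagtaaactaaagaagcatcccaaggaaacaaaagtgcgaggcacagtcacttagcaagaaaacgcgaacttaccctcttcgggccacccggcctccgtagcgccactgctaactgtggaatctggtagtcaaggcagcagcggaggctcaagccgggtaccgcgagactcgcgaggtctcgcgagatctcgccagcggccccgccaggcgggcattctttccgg

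SCO1 is a copper chaperone of the inner membrane that serves COX2. Sco1 (chr11:67052670-67067070, plus strand, 6 exons) measured 5.71, 6.43 and 5.54 FPKM in the controls against 6.85, 6.74 and 6.48 in the knockouts. The groups did not overlap, but their nearest hearts were close to each other, and the means were 5.89 ± 0.474 and 6.69 ± 0.189 FPKM. Sco1 did not pass the threshold (log2 fold change 0.16, SE 0.0764, interval -0.02 to 0.34, adjusted p = 0.150). With library sizes that leave out the transcripts of mitochondrial DNA it did (0.24, adjusted p = 0.0411). Under that scaling the genes called over the whole table were 2649 higher and 1621 lower, a share of 62% higher where it was 48.9% before.

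SCO2, the paralogue of SCO1, acts at the same copper site. Sco2 (chr15:89371637-89373846, minus strand) was listed at 0 in all 6 hearts, with no reads. A count of 3 reads over its length would have been 0.0952 to 0.141 FPKM, for counting error only. Its principal transcript had no base of its own: 829 exonic bases are shared with Ncaph2 on the opposite strand, at 13.6 to 15.2 FPKM, and 856 with Tymp on the same strand, at 0.354 to 0.667 FPKM. The 0 is therefore a value of this table for a gene with 103 unshared exonic bases, and the level of Sco2 cannot be read from it. Cox17 (chr16:38346991-38352763, plus strand) measured 0.50, 0.400 and 0.437 FPKM in the controls against 0.440, 0.690 and 0.386 in the knockouts. The cKO heart numbered 2 was the highest, with a counting interval of 0.557 to 0.845 FPKM (95%, exact Poisson, 93 reads), and the other cKO hearts lay within or next to the Ctrl range. Without the filter on low values the log2 fold change of Cox17 was 0.05 (SE 0.0918, adjusted p = 0.752). The level of Cox17 is per 5773 bases, and Gm21987, which shares its coding bases on the same strand, was listed at 0 in every heart.

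COX14 and SURF1 act on COX1. COX14 holds newly made COX1 in an early assembly intermediate, and Cox14 (chr15:99725618-99728136, plus strand, 2 exons) had the highest deposited values of the 10 genes. It measured 203, 247 and 200 FPKM in the controls against 225, 220 and 228 in the knockouts. The cKO hearts lay inside the Ctrl range (216 ± 26.2 and 224 ± 3.92 FPKM), and the log2 fold change was 0.06 (interval -0.18 to 0.29, adjusted p = 0.683). SURF1 takes part in the insertion of haem A into COX1. Surf1 (chr2:26913381-26916530, minus strand, 9 exons) measured 18.2, 18.3 and 18.7 FPKM in the controls against 16.1, 16.8 and 17.8 in the knockouts. All cKO hearts lay below the controls in deposited FPKM (18.4 ± 0.221 against 16.9 ± 0.889 FPKM). Whether they do so with the totals of reads in genes as library sizes was not tested. Surf1 did not pass the threshold (log2 fold change -0.12, SE 0.0685, interval -0.28 to 0.05, adjusted p = 0.232). Surf2, on the opposite strand with 137 shared bases, had a log2 fold change of 0.29 (adjusted p = 0.0866).

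COX18 and COX20 act on COX2. COX18 moves the tail of COX2 across the inner membrane. Cox18 (chr5:90214724-90224001, minus strand, 6 exons) measured 3.06, 4.01 and 3.62 FPKM in the controls against 4.75, 3.84 and 4.39 in the knockouts. The groups overlapped by the lowest cKO heart (3.56 ± 0.478 and 4.33 ± 0.459 FPKM), and the log2 fold change was 0.23 (SE 0.107, interval -0.03 to 0.48, adjusted p = 0.148). COX20 is a chaperone that binds newly made COX2 and presents it to the SCO proteins. Cox20 (chr1:178319130-178322693, plus strand, 4 exons) measured 1.13, 1.20 and 1.97 FPKM in the controls against 1.81, 2.18 and 2.39 in the knockouts. The highest Ctrl heart lay inside the cKO range. Its log2 fold change of 0.37 was the most positive of the 8, but was not past the threshold (SE 0.147, interval 0.03 to 0.72, adjusted p = 0.0911). Without Ctrl replicate 3 the change of Cox20 was 0.53 and passed (adjusted p = 0.0258). With a pseudocount of 0.1 its change was 0.57 and with voom 0.59, neither past the threshold (adjusted p of 0.0903 and 0.144). Cox20 rested on 19 to 53 reads per heart, and the counting intervals of the lowest and the highest heart were 0.679 to 1.76 and 1.79 to 3.12 FPKM. Hnrnpu, which shares 804 of its 883 exonic bases on the opposite strand, was at 14.8 to 19.7 FPKM (log2 fold change -0.05, adjusted p = 0.727). The annotated processed pseudogene Cox20b was listed at 0 in 5 hearts and at 0.136 FPKM in 1.

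**Figure D3:**
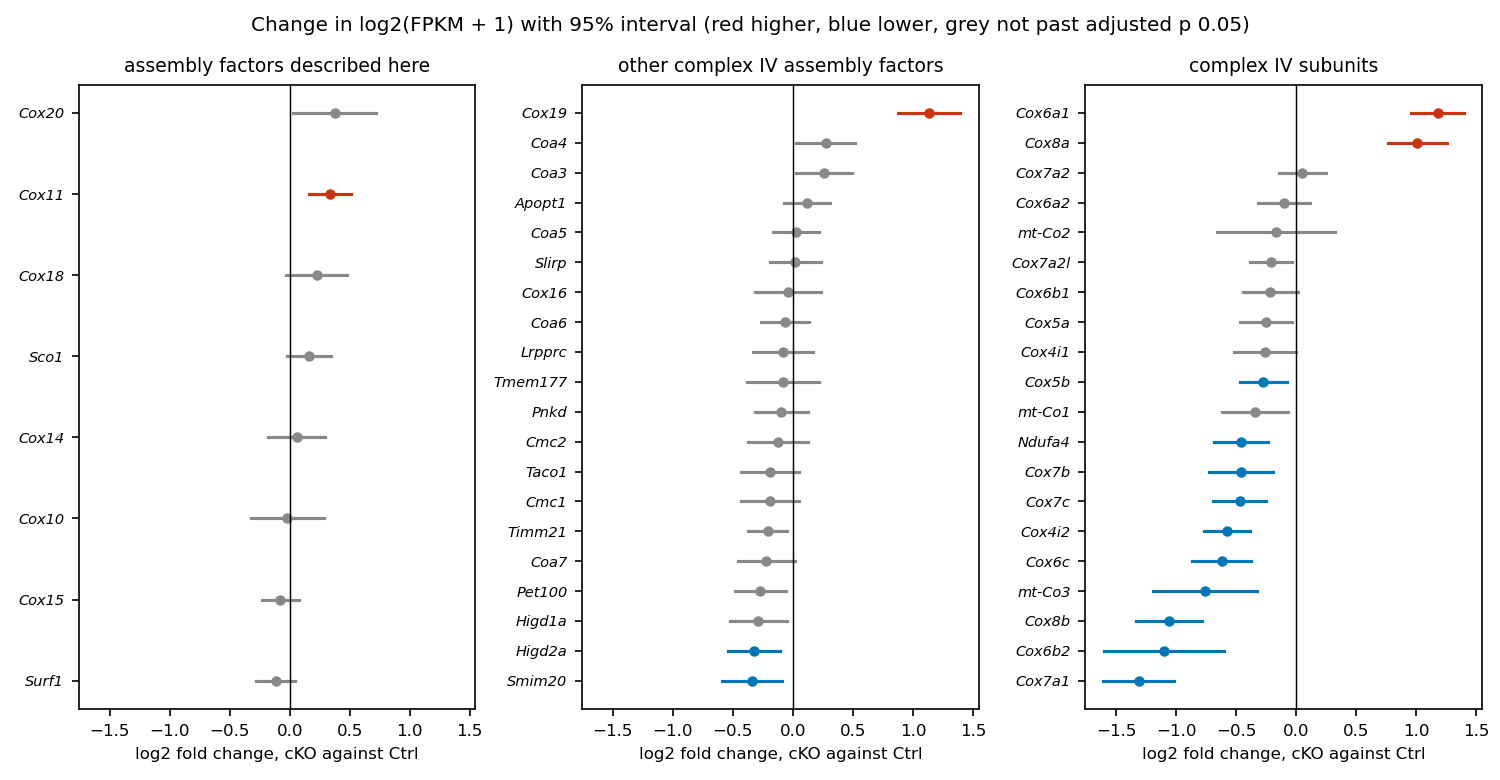
Log2 fold changes of cKO against Ctrl (horizontal axis) with 95% intervals from limma for the 8 tested assembly factors (left), 20 other assembly factors of complex IV (middle) and 20 subunits of complex IV (right), in red where higher, blue where lower and grey where not past the threshold. The left panel runs from -0.12 to 0.37 with 1 call, while the subunits run from -1.31 to 1.18 with 12 calls.

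The other assembly factors of complex IV act on the same core subunits. Of 22 listed genes 21 were in the table and 20 were tested, and 1 rose and 2 fell, beside 16.3% and 17.0% of all genes, with a median log2 fold change of -0.09. Cox19 showed the largest change in either list of assembly factors. It encodes a soluble protein of the intermembrane space that works with COX11, and measured 14.5, 15.0 and 13.2 FPKM in the controls against 37.2, 32.0 and 28.6 in the knockouts. The groups lay far apart (log2 fold change 1.13, SE 0.108, adjusted p = 0.00116), and Cox19 shares no exonic base with another gene. Smim20, which binds newly made COX1, fell (log2 fold change -0.34, adjusted p = 0.0443), as did Higd2a, a factor of complex IV and supercomplex assembly (-0.32, adjusted p = 0.0348). Both calls were close to the threshold, and neither was made without Ctrl replicate 1, 2 or 3 or cKO replicate 1 (adjusted p between 0.0557 and 0.134). Smim20 was not called without cKO replicate 2 either (0.0995), nor was Higd2a without cKO replicate 3 (0.0915). Pet117, with no unshared exonic base, was listed at 0.

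The changes of the subunits themselves lay between -1.31 and 1.18 on the log2(FPKM + 1) scale. Of 20 subunits, all tested, 2 rose and 10 fell, beside 16.3% and 17.0% of all genes, and the median was -0.31. In 17 of the 20 the groups did not overlap (51.2% of all genes), and 5 changed by at least 2-fold on the tested scale (555 of the 12944 genes). Cox7a1, the heart and muscle isoform of subunit 7A, fell by 1.31 on the log2 scale (adjusted p = 0.00113), and Cox8b, a muscle isoform of subunit 8, fell by 1.06 (adjusted p = 0.00166). Cox6b2, whose cKO mean was 21.1% of the Ctrl mean, fell by 1.10 (adjusted p = 0.00904); at its low level the size depends on the scale, and the change was -2.08 when 0.1 in place of 1 was added before taking logs and -2.22 when recovered reads were fitted by voom. Cox6a1, the ubiquitous isoform of subunit 6A, rose from 222, 219 and 211 FPKM in Ctrl to 547, 486 and 450 FPKM in cKO (log2 fold change 1.18, adjusted p = 0.000675). Cox8a, the other subunit that rose, is named here after its value was seen (log2 fold change 1.01, adjusted p = 0.00147).

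The core subunits COX1, COX2 and COX3 are encoded in mitochondrial DNA, and the roles given above for the 10 factors concern COX1 and COX2. The mRNA of COX1, mt-Co1, measured 53018, 56991 and 49433 FPKM in the controls against 41292, 41070 and 43021 in the knockouts. The groups did not overlap, and the log2 fold change of -0.34 was not past the threshold (SE 0.115, adjusted p = 0.0583). The COX2 mRNA, mt-Co2, had overlapping groups (-0.17, adjusted p = 0.567). The COX3 mRNA, mt-Co3, fell, from 1714, 1950 and 2472 FPKM in Ctrl to 1273, 970 and 1383 FPKM in cKO (-0.76, adjusted p = 0.0196). The call of mt-Co3 was lost without Ctrl replicate 2 (adjusted p = 0.0511) or 3 (0.0590) and without the filter on low values (0.0767). Of the 14 alternatives, 3 called mt-Co1 lower, namely voom on the recovered reads (0.0271), eBayes without trend (0.0178) and a minimum mean of 1 FPKM (0.0372).

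**Figure D4:**
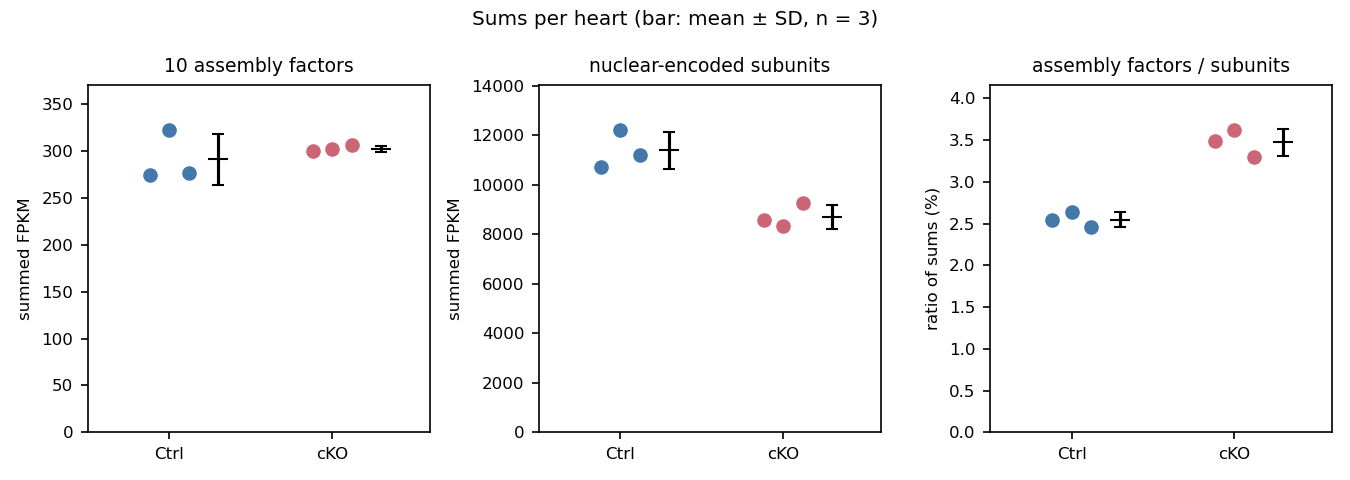
Sums per heart for Ctrl (blue) and cKO (red), with mean ± SD as bars and every vertical axis starting at 0. The left panel shows summed FPKM of the 10 assembly factors, the middle panel that of the nuclear-encoded subunits, and the right panel the first as a percentage of the second, which was 2.46% to 2.64% in Ctrl and 3.30% to 3.62% in cKO.

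Set beside the nuclear-encoded subunits, the summed mRNA of the 10 assembly factors was a larger percentage in every cKO heart than in any control. Their summed FPKM was 274, 322 and 276 in Ctrl and 299, 302 and 306 in cKO, and the groups overlapped (291 ± 27.3 and 302 ± 3.21). The sum of the nuclear-encoded subunits was 10739, 12227 and 11230 FPKM in Ctrl and 8576, 8328 and 9256 FPKM in cKO. All cKO hearts were lower for the subunits. Among these subunits the largest falls in mean FPKM were those of Cox7a1 (1739 to 704) and Cox8b (1818 to 873). Cox6a1 and Cox8a rose (217 to 494 and 232 to 468). The ratio of the sums was 2.55% ± 0.0884 in Ctrl and 3.47% ± 0.160 in cKO, without overlap. The ratio is a description without a test. It does not depend on library size, and most of its numerator is Cox14.

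**Figure D5:**
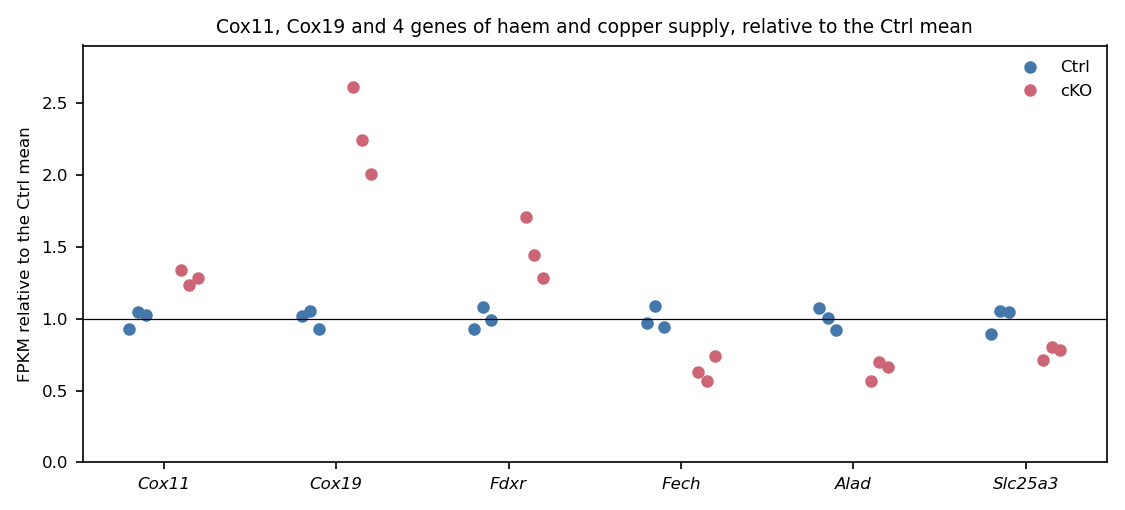
FPKM of 6 genes relative to their Ctrl mean (vertical axis, starting at 0, with a line at 1) in each Ctrl heart (blue) and cKO heart (red). Cox11, Cox19 and Fdxr lay above all controls in every cKO heart, and Fech, Alad and Slc25a3 below them.

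Upstream of the assembly factors stand the genes that supply haem and copper. Of 16 listed genes 15 were tested, and the median was -0.12. Of the 15, 1 rose and 5 fell, beside 16.3% higher and 17.0% lower over all genes. With both directions together, the share called was near the 33.3% of all genes. The count that fell was 2 without Ctrl replicate 2 or 3 and 3 without cKO replicate 1 or 3, and none rose without Ctrl replicate 1 or 3. Fech, ferrochelatase, which inserts iron in the last step of haem synthesis, measured 48.9, 54.8 and 47.5 FPKM in the controls against 31.8, 28.6 and 37.4 in the knockouts (log2 fold change -0.62, adjusted p = 0.00769). Alad, an early enzyme of the same route, was at 21.4, 20.02 and 18.4 FPKM against 11.3, 13.9 and 13.3 FPKM (-0.60, adjusted p = 0.00552). Both haem enzymes fell without overlap of the groups. Fdxr, the reductase that passes electrons to ferredoxin, rose (3.35, 3.89 and 3.55 against 6.15, 5.19 and 4.60 FPKM, log2 fold change 0.45, adjusted p = 0.0180). Fdx1, a ferredoxin named here after its value was seen, fell (16.7, 19.7 and 19.7 against 14.1, 15.2 and 13.8 FPKM, -0.35, adjusted p = 0.0232). Fdx2, listed as Fdx1l, was not tested. Slc25a3, the carrier of phosphate and copper in the inner membrane, fell (251, 297 and 295 against 199, 226 and 219 FPKM, -0.38, adjusted p = 0.0239). The call of Fdxr was lost without Ctrl replicate 1 or 3 (adjusted p of 0.0611 and 0.0570), and that of Slc25a3 without Ctrl replicate 2 or 3 or cKO replicate 1 or 3 (0.0560 to 0.0838) and without the filter on low values (0.0554).

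Assembly factors of the other respiratory complexes and of ATP synthase had a median of -0.10. All 27 were tested, and 1 rose and 7 fell, beside 16.3% higher and 17.0% lower over all genes. With both directions together, the share called was near the 33.3% of all genes. Sdhaf4, an assembly factor of complex II, fell (log2 fold change -0.59, adjusted p = 0.00574), as did Ttc19 of complex III (-0.46, adjusted p = 0.00868) and, of complex I, Tmem126b (-0.42, adjusted p = 0.0114) and Ndufaf1 (-0.39, adjusted p = 0.0348). Bcs1l, which inserts the iron-sulphur protein of complex III, is named here as the gene that rose, after its value was seen (0.27, adjusted p = 0.0450). Without Ctrl replicate 2 or 3 only 3 of the 27 fell, and Bcs1l lost its call without any of the 3 Ctrl hearts, cKO replicate 1 or cKO replicate 2. The call of Ndufaf1 was lost without Ctrl replicate 2 or 3 or cKO replicate 1 or 3 (adjusted p of 0.0894 to 0.106) and without the filter (0.0736). Whether the complex IV factors differ from these was not tested.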

How the data were processed

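RNA of 6 mouse hearts was measured, 3 Ctrl and 3 cKO, grouped by the sample titles. The authors' methods describe poly-A selected libraries, paired-end reads aligned with HISAT2, counting per gene with featureCounts and a test with DESeq2; the submitters' processing notes give versions 2.0.5 of HISAT2 and 1.5.0-p3 of featureCounts. The authors deposited FPKM for 54532 genes, with the gene length (another deposited value, in bases) that they used. The table holds no column of the authors' own comparisons. The processing notes name mm9, but all 54409 identifiers shared with GENCODE M21 lie on the same GRCm38 chromosome and 53499 have identical start and end, so GRCm38 coordinates are given; 53325 (98%) have a length equal to the union of their annotated exons.

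FPKM multiplied by gene length gave whole reads within 0.01 for 100% of values. The recovered totals were 19464289, 22772851 and 24875499 in Ctrl and 15989322, 21982256 and 23749804 in cKO. Intervals from reads and floors of 3 reads cover counting error only. The library sizes behind the FPKM were 0.913 to 0.98 times these totals in Ctrl and 1.06 times in cKO. The voom fit used these same library sizes, and no alternative used the totals.

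The planned test was fitted with limma 3.58.1 (lmFit, eBayes with trend, two-sided) in R 4.3.3 on log2(FPKM + 1), for genes whose mean reached 0.5 FPKM, without covariates. The limma script was tested on simulated data whose changes were larger than those of any member, so that run does not speak to changes as small as theirs. Summed levels, exon overlaps and motif matches were computed in Python 3.11.15. All 10 members are named, and of each other list up to 4 genes past the threshold with the largest change, plus mt-Co1, mt-Co2 and mt-Co3. Members, lists and motifs were chosen with earlier results of these data known. Alternatives were another pseudocount (0.1), filter (none, or a mean of 1 FPKM), scaling, voom on the recovered reads, eBayes without trend, a replicate block and leaving out each heart. Replicate numbers were not treated as pairing.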

Additional observations from a re-analysis of the deposited data

How the results depend on the processing

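Over 14 alternatives, the log2 fold change of Cox11 lay between 0.29 and 0.42, with adjusted p from 0.00677 to 0.0520 and the call lost only without Ctrl replicate 1. Of 112 comparisons of the 8 tested assembly factors with an alternative, 102 kept direction and side of the threshold. Cox10, near 0, turned positive with median-of-ratios scaling (0.0071), scaling without mtDNA-encoded genes (0.066) and when some hearts were left out (range -0.15 to 0.084), Cox15 with scaling without mtDNA-encoded genes (0.0032), and mt-Co2 without cKO replicate 2 (0.064, range -0.36 to 0.064). The number of the 10 members higher was 2 with that scaling without mtDNA-encoded genes (Sco1 joined) and 0 to 2 when a heart was left out (Cox20 joined without Ctrl replicate 3, adjusted p = 0.0258), and none was lower under any alternative. Other complex IV assembly factors had 3 higher when mtDNA-encoded genes were left out of the scaling, and between 1 and 3 without a heart; the number lower was 0 without filter, 1 with median-of-ratios scaling, 0 when mtDNA-encoded genes were left out of the scaling, and between 0 and 2 without a heart. For haem and copper supply, leaving out a heart gave 0 to 1 higher and 2 to 5 lower. For assembly factors of the other complexes it gave 0 to 1 higher and 3 to 6 lower, no filter gave 0 higher and 4 lower, and scaling without mtDNA-encoded genes gave 4 higher. Smim20 lost its call in 9 of 14 alternatives and Higd2a in 7. Across genes, Ctrl and cKO hearts of the same number correlated, after subtracting the group means, at -0.055, 0.175 and -0.015, so the numbers were not taken to pair them; with a replicate block 2 members were higher (Cox20 joined, adjusted p = 0.0449), 1 other complex IV factor was lower and 0 factors of the other complexes were higher, and over all genes 1874 were higher and 1982 lower. The causes were not tested. The calls without filter were fewer over all genes (3279 of 26855 genes, against 4315 of 12944). A ratio of Sco2 to Sco1 could not be formed because Sco2 was listed at 0. With 3 hearts a group, the width of the interval given for each gene sets the precision, and for Cox17, Cox20 and Sco2 the shared sequence limits what the reads can show.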
